A study of Mus musculus with 7 samples.

Results

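The 10 genes described here are those of glucocorticoid signalling that the files list under the symbols Nr3c1, Nr3c2, Hsd11b1, Fkbp5, Tsc22d3, Per1, Zbtb16, Sgk1, Dusp1 and Zfp36. They were chosen by name, as 2 receptors, 1 activating enzyme and 7 genes widely used as readouts of the receptor, out of 21121 genes in each library. All 10 were listed in all 7 libraries, and 9 passed the filter on low values, the exception being Hsd11b1. The libraries held RNA of epithelial cells from lungs of C57BL/6 mice at 5 stages: embryonic day 13.5 (E13.5, 1 library), E15.5 (1 library), E18.5 (2 libraries), postnatal day 14 (P14, 1 library) and P56 (2 libraries). No genotype or treatment differed between the stages. The cells of every stage were dissociated with collagenase, Dispase II and DNase I, depleted with magnetic beads, and sorted as live cells that carried Epcam and lacked CD31, CD45, CD146 and Ter119, so each library mixes all Epcam-positive epithelial cell types of its stage. The RNA was amplified and read by 3' SAGE sequencing, in which a short tag near the 3' end stands for a transcript whatever its length. The labels give neither the hormone concentration of the animals, nor the hour of collection, nor which animals each library came from, so p-values measure only the spread between these samples, which may be technical.

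Glucocorticoids are steroid hormones of the adrenal gland, in the mouse mainly corticosterone. The hormone enters the cell and binds the glucocorticoid receptor, which waits in the cytosol in a complex of Hsp90 and its partner proteins. The bound receptor moves to the nucleus, binds DNA at glucocorticoid response elements and raises or lowers the transcription of nearby genes. Circulating glucocorticoid rises late in mouse gestation, and mice without the receptor die at birth with immature lungs, which is why the stages before, at and after E18.5 were set side by side.

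Values are scaled tag counts, in which 1 read was worth 0.236 to 0.385 units, and depth ran from 2559927 to 3895740 reads per library. Levels are given on this scale, with the SD where a stage had 2 libraries. Changes are log2 differences of value + 1 from limma-trend over all 12964 genes tested, and a call means a p under 0.05 after Benjamini-Hochberg adjustment over those genes. Ratios are ratios of mean values, without the added 1. Markers of cells that the sort should remove were low: the summed immune markers were at most 0.00172% of reads in any library, with Ptprc, which encodes CD45, at 0 in 5 of the 7, while mesenchymal markers took 0.00545% to 0.0238%. Endothelial markers took 0.00551% to 0.0239%, of which Esam alone made up 89.6% to 96.5% in the E18.5, P14 and P56 libraries, and 0.000837% to 0.0043% without it, with Pecam1 and Cdh5, the genes of CD31 and VE-cadherin, at 1.08 or below. Erythroid markers, mostly globin genes, had 0 reads in the first E18.5 library and 129 in the second, and 20 to 153 reads in the other libraries. The epithelial mixture itself moved with stage: the summed markers of alveolar type 2 cells, the surfactant producers, took 0.0253% of reads at E13.5 and 0.246% at E15.5, 0.971% and 0.889% in the E18.5 libraries, 3.22% in the P14 library, and 4.32% and 4.69% in the P56 libraries. Those of alveolar type 1 cells, the flat cells of gas exchange, went another way: without Aqp5, which is also a listed glucocorticoid target, they took 0.00475% at E13.5 and 0.0589% at E15.5, 0.404% and 0.425% in the E18.5 libraries, 0.269% in the P14 library, and 0.0479% and 0.0461% in the P56 libraries. In the E13.5 library Etv5 alone made up 143 of the summed type 2 marker value of 233. Etv5 was the only type 2 marker called lower at E18.5 against the early stages. The part of either cell type in the results below was not tested, and in these bulk samples fewer cells of a type and less RNA per cell cannot be told apart.

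Nr3c1 encodes the glucocorticoid receptor (chromosome 18, 39410545 to 39519421, minus strand, GRCm38). Its value was 28.1 at E13.5 and 52.7 at E15.5, 63.9 and 68.9 in the E18.5 libraries, 72.6 in the P14 library, and 50.1 and 62.5 in the P56 libraries. It was lowest at E13.5, and the highest stage mean was 2.58 times the lowest. Nr3c1 rose at E18.5 against the 2 early stages, with 66.4 ± 3.56 (SD, n = 2) at E18.5 and 40.4 as the early mean, a ratio of 1.64 (log2 change 0.77, SE 0.23, limma adjusted p = 0.0438). That call sits near the threshold: it was not made by DESeq2 (adjusted p = 0.172). Against E15.5 alone, with the E13.5 library left out, the log2 change was 0.33 (limma adjusted p = 0.505). After birth, P14 differed from E18.5 by a log2 change of 0.13 (adjusted p = 0.859) and P56 by -0.24 (adjusted p = 0.545), neither called by limma. P14 and E18.5, E18.5 and P56, and P56 and E15.5 lay within the larger gap between replicate libraries.

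Nr3c2 encodes the mineralocorticoid receptor, which binds aldosterone and also glucocorticoids (chromosome 8, 76899442 to 77245012, plus strand). It was read rarely: 8 reads in the E13.5 library and 3 in that of E15.5, 13 and 1 in the E18.5 libraries, 6 in the P14 library, and 23 and 20 in the P56 libraries. The 2 libraries of E18.5 lay far apart, with values of 5.01 and 0.377, while those of P56 were alike at 6.54 and 6.48. The P56 libraries were above every other library. Even so the change of P56 against E18.5 was not called (log2 change 1.39, SE 0.71, limma adjusted p = 0.252), and no pair of neighbouring stages differed beyond the larger replicate gap.

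Hsd11b1 encodes the enzyme that regenerates active corticosterone from its inactive keto form inside the cell (chromosome 1, 193221634 to 193264075, minus strand). It had 1 read in the E13.5 library and 1 in that of E15.5, 4 and 8 in the E18.5 libraries, 0 in the P14 library, and 2 and 1 in the P56 libraries. The 2 libraries of E18.5 held the highest counts, and the count of 0 at P14 allows a value of up to 0.825, a limit that covers counting error only. It was not tested. Lamb3, a laminin chain gene with values up to 52.8, overlaps the 3' end of Hsd11b1 on the other strand, and the sources used here do not state whether the authors counted by strand, so the reads of these 2 genes may not be separable.

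Among enzymes that act beside Hsd11b1, H6pd, which supplies its cofactor in the endoplasmic reticulum, rose at E18.5 to a mean of 7.99, against 1.90 in the early stages, 4.2 times as high (limma adjusted p = 0.0188). Its value was 23.9 at P14, and 17.6 and 30.1 at P56. Hsd11b2, which inactivates corticosterone, stayed between 0 and 2.59 in all 7 libraries. Of the 26 listed genes of steroid metabolism, 16 were in the files and 10 were tested. Among the 10, 4 rose and 2 fell at E18.5, where 15.8% of all genes tested were called higher and 13.4% lower. Akr1c14, a hydroxysteroid dehydrogenase, rose 16.5-fold, on 109 reads at E18.5 and 7 in the early stages. It fell 22.8-fold at P56 against E18.5. That fall rests on 6 reads over the 2 P56 libraries, each at the floor of 3 reads, so its size is uncertain. Without the E13.5 library fewer genes of the list were called in either direction, as was so over all genes tested.

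The 30 genes of the receptor machinery (chaperones, cochaperones, nuclear import and coregulators) were all tested. At E18.5 against the early stages 12 fell, 1 rose and 17 were not called, with a median log2 change of -0.56, against 0.03 over all genes tested. Over all genes tested, 13.4% were called lower there and 15.8% higher. Hsp90b1, the Hsp90 of the endoplasmic reticulum, fell to 189.5 at E18.5, against 679.3 in the early stages (log2 change -1.81, SE 0.26, limma adjusted p = 0.00244). Of the cytosolic Hsp90 genes, Hsp90aa1 was not called (log2 change 0.05, limma adjusted p = 0.863). Hsp90ab1 fell less than Hsp90b1 (log2 change -0.90, limma adjusted p = 0.0108). Kpnb1, an importin, was 3.23-fold lower and Cdc37, a cochaperone for kinases, 1.86-fold lower. Dnajb1, a stress-inducible Hsp40 cochaperone, rose 2.0-fold. DESeq2 called 8 of the list lower, and over all genes it called 1002 lower, against 1736 by limma. Without the E13.5 library limma called fewer of the list lower, as was so over all genes tested. In P14 against E18.5 only Dnajb1 was called lower and Ncoa1, a coactivator, higher. Over all genes tested, 1.24% were called lower there and 1.87% higher. In P56 against E18.5 the only calls were Hsp90b1 and Ncoa1, higher by 3.21-fold and 1.96-fold. There 8.07% of all genes tested were called higher and 6.15% lower.

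**Figure D1:**
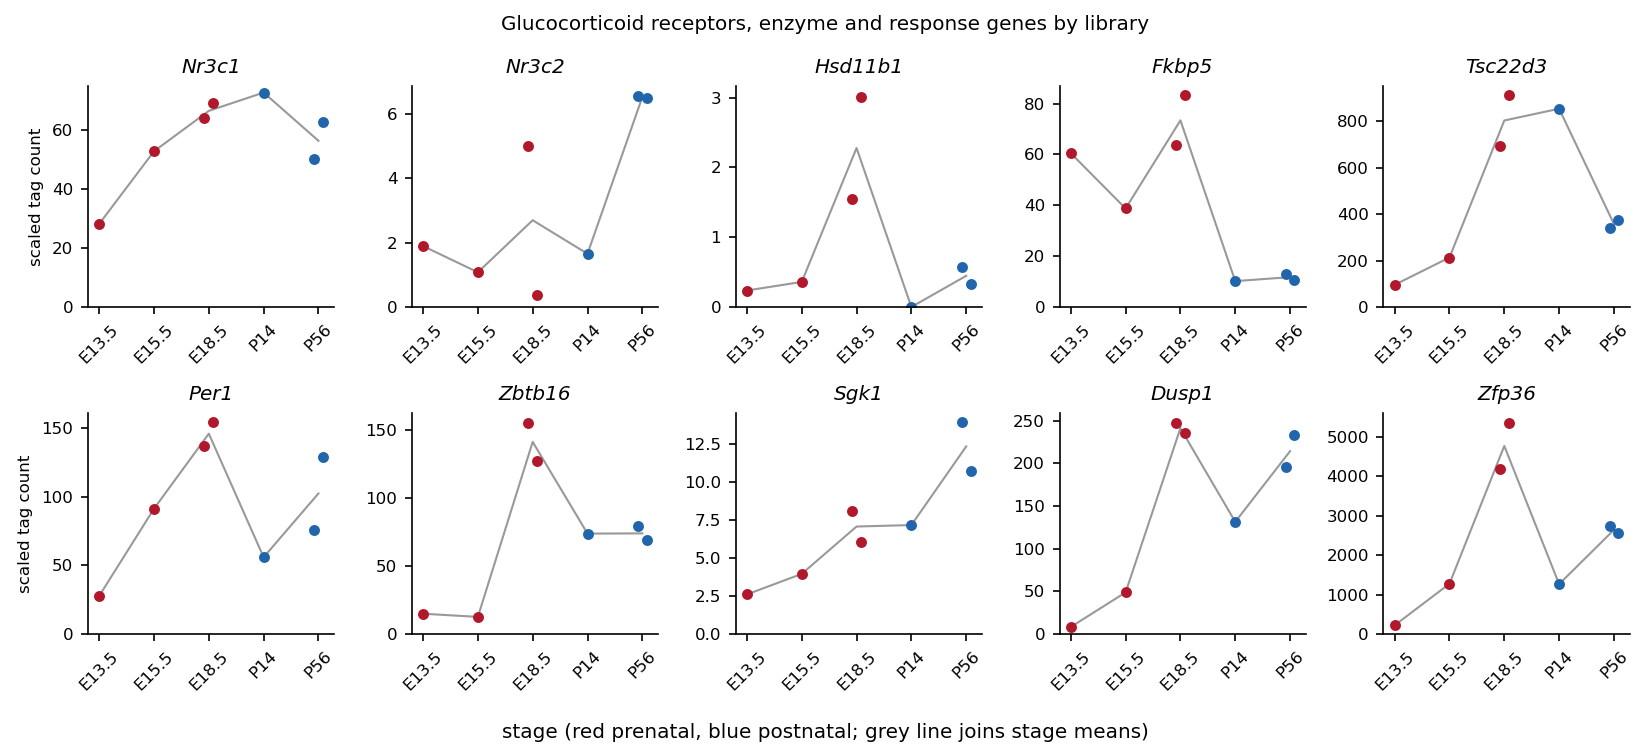
Scaled tag count of the 10 genes in each of the 7 libraries, with stages on the horizontal axis; points are libraries (red prenatal, blue postnatal), the grey line joins stage means, and each panel has its own scale from 0. Tsc22d3, Zbtb16, Dusp1 and Zfp36 have both E18.5 libraries far above the E13.5 and E15.5 libraries, Fkbp5 drops after birth, and the E18.5 libraries of Nr3c2 lie apart at 5.01 and 0.377.

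Stretches upstream of the annotated starts of 5 response genes show which known response letters these regions hold. Windows of 250 bases before each RefSeq start (GRCm38.p6) were searched on both strands for 2 glucocorticoid motifs. These were the palindromic response element GNACANNNTGTNC and the single site AGAACA, which a palindrome match need not contain. The others were the cAMP response element TGACGTCA, its arm TGACG, the E-box CACGTG bound by clock proteins, and the serum response CArG box. The search covered 8 of the 10 genes, all but Nr3c1 and Zbtb16, with 16 windows in all. Of 32851 windows of all genes, 0.387% held the palindrome, 16.1% AGAACA, 1.55% the full cAMP element, 17.8% its arm, 6.02% the E-box and 1.47% the CArG box. Among the 16 windows, 1 held the palindrome, 4 AGAACA, 1 the full cAMP element, 5 its arm, 4 the E-box and 1 the CArG box. Sgk1, Tsc22d3 and Per1 had more than 1 window, Sgk1 the most, so these counts are of windows and not of genes. AGAACA lay only in windows of Sgk1, which held most of them, and of Tsc22d3. The CArG box was that of Zfp36, 58 bases before the start. A match is a description of letters and not a site of binding, and response elements of these genes also lie far from their starts, outside such windows. Capitals below mark matches on either strand, of the palindrome, AGAACA, the full cAMP element or the E-box. Each stretch is 5' to 3' on the strand of its gene, without bases of annotated exons. Sgk1 is shown for the only palindrome among the 16 windows, which begins 188 bases before the start and whose 2 sides both lie within AGAACA matches. It also holds an E-box that overlaps a further AGAACA match. Dusp1 is shown for the full cAMP element and an E-box, Fkbp5 and Per1 for an E-box, and Tsc22d3 for a lone AGAACA match.
Sgk1, chr10:21993640-21993889, plus strand: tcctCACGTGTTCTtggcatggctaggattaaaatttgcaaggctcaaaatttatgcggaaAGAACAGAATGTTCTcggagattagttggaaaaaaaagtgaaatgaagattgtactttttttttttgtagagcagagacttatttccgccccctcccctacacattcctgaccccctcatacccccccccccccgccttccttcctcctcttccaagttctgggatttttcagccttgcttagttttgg
Dusp1, chr17:26508520-26508722, minus strand: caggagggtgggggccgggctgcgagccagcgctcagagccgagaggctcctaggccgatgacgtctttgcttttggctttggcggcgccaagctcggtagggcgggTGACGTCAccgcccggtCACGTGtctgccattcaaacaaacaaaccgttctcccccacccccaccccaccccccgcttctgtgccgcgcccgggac
Fkbp5, chr17:28486150-28486399, minus strand: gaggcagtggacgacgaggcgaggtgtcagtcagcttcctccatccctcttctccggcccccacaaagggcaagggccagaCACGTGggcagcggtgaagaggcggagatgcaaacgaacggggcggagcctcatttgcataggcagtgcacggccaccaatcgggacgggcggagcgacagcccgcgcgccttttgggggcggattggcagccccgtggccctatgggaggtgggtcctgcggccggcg
Per1, chr11:69098699-69098947, plus strand: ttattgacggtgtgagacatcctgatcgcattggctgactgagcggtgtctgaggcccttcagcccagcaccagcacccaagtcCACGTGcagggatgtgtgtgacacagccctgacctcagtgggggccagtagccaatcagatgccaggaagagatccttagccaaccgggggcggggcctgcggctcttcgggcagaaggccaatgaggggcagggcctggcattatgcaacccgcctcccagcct
Tsc22d3, chrX:140600660-140600772, minus strand: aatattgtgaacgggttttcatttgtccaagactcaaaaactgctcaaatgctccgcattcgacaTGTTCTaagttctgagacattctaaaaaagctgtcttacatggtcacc

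Of the 9 genes tested, 6 rose at E18.5 against E13.5 and E15.5 and 0 fell, in a comparison where 15.8% of all genes tested were called higher and 13.4% lower. They were Dusp1, Zbtb16, Zfp36, Tsc22d3, Per1 and Nr3c1, and the median log2 change of the 9 was 1.51, against 0.03 over all genes tested. Libraries of the 2 sides did not overlap for 8 of the 9, as for 63.0% of all genes tested. Fkbp5, Sgk1 and Nr3c2 were not called. After birth the calls were all downward. At P14 against E18.5, 2 of 9 fell, where 1.24% of all genes tested were called lower and 1.87% higher. At P56 against E18.5, 4 of 9 fell, where 6.15% were called lower and 8.07% higher.

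Zbtb16 encodes PLZF, a zinc finger transcription factor induced by glucocorticoid in several human and rodent tissues (chromosome 9, 48654297 to 48836222, minus strand). Its value was 14.9 at E13.5 and 12.6 at E15.5, 155 and 127 in the E18.5 libraries, 73.7 in the P14 library, and 79.1 and 68.7 in the P56 libraries. Both E18.5 libraries were the highest of the 7, and both early libraries the lowest. At E18.5 the mean was 141 ± 19.9 (SD, n = 2), 10.3 times the early mean (log2 change 3.27, SE 0.23, limma adjusted p = 0.000154). P56, at 73.9 ± 7.39 (SD, n = 2), was 1.91-fold lower than E18.5 (log2 change -0.92, SE 0.23, adjusted p = 0.0405). Limma lost that call with no filter on low values (adjusted p = 0.155) and without robust variances (0.0658), and edgeR lost it without either P56 library (0.062 without the first and 0.118 without the second). P14 had the same log2 change against E18.5, -0.92, which was not called (adjusted p = 0.146).

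Tsc22d3 encodes GILZ, the glucocorticoid-induced leucine zipper, which restrains inflammatory transcription factors (chromosome X, 140539528 to 140600659, minus strand). Its value was 95.5 at E13.5 and 213 at E15.5, 695 and 909.9 in the E18.5 libraries, 853 in the P14 library, and 341 and 373 in the P56 libraries. It was high at E18.5 and P14 and lower at both early stages and at P56. At E18.5 the mean was 802 ± 152 (SD, n = 2), 5.21 times the early mean (log2 change 2.47, SE 0.20, limma adjusted p = 0.000241). P14 did not pass the test against E18.5 (log2 change 0.10, adjusted p = 0.871), and this sign turned to -0.09 without the first E18.5 library. P56 fell 2.25-fold, to 357 ± 22.3 (SD, n = 2), against E18.5 (log2 change -1.15, SE 0.20, adjusted p = 0.01), a call lost with no filter (adjusted p = 0.14). P56 against P14 had a log2 change of -1.26 that limma did not call (adjusted p = 0.0856) and edgeR did (adjusted p = 0.019).

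Fkbp5 encodes a cochaperone of Hsp90 that lowers the hormone affinity of the receptor and is itself a receptor target (chromosome 17, 28399094 to 28517527, minus strand). Its value was 60.5 at E13.5 and 38.8 at E15.5, 63.5 and 83.3 in the E18.5 libraries, 10.2 in the P14 library, and 12.8 and 10.7 in the P56 libraries. The 4 prenatal libraries were all above the 3 postnatal ones, and E13.5 lay close to the lower E18.5 library. The change at E18.5 against the early stages was not called (ratio 1.48, log2 change 0.58, SE 0.27, limma adjusted p = 0.152). Fkbp5 fell 7.21-fold at P14 against E18.5 (log2 change -2.72, SE 0.33, adjusted p = 0.00947), a call lost at the same log2 change with no filter (adjusted p = 0.0668) and without robust variances (0.0836). It fell 6.25-fold at P56 against E18.5, with 11.7 ± 1.5 at P56 and 73.4 ± 14.0 at E18.5 (SD, n = 2 each; log2 change -2.54, SE 0.27, adjusted p = 0.00143), a call lost with no filter (adjusted p = 0.0626). P14 and P56 lay within the larger replicate gap.

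Per1 encodes a repressor of the circadian clock that glucocorticoid also induces (chromosome 11, 69095217 to 69109960, plus strand). Its value was 27.6 at E13.5 and 91.1 at E15.5, 137 and 154 in the E18.5 libraries, 55.8 in the P14 library, and 76.0 and 129 in the P56 libraries. The 2 P56 libraries differed by a log2 gap of 0.75, the widest between replicates among the 7 response genes. Per1 rose at E18.5 to 146 ± 12.3 (SD, n = 2), 2.45 times the early mean (log2 change 1.51, SE 0.28, limma adjusted p = 0.00765). Against E15.5 alone, with the E13.5 library left out, the log2 change was 0.67 and was not called (adjusted p = 0.227). P14 against E18.5 gave -1.37, called by edgeR (adjusted p = 0.0317) and not by limma (adjusted p = 0.0926).

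Sgk1 encodes a kinase that keeps the epithelial sodium channel at the cell surface, downstream of both receptors (chromosome 10, 21882184 to 21999903, plus strand). It had 11 reads in the E13.5 library and 11 in that of E15.5, 21 and 16 in the E18.5 libraries, 26 in the P14 library, and 49 and 33 in the P56 libraries. Its value was 2.60 at E13.5, 3.95 at E15.5, 7.06 ± 1.45 at E18.5, 7.15 at P14 and 12.3 ± 2.30 at P56 (SD, n = 2 at E18.5 and P56). Both P56 libraries were above all others, and P14 and E18.5 lay within the larger replicate gap. Neither E18.5 against the early stages (log2 change 0.92, SE 0.38, limma adjusted p = 0.112) nor P56 against E18.5 (log2 change 0.73, adjusted p = 0.264) was called.

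Dusp1 encodes a phosphatase that switches off MAP kinases (chromosome 17, 26505590 to 26562128, minus strand). Its value was 8.27 at E13.5 and 48.8 at E15.5, 247 and 235 in the E18.5 libraries, 132 in the P14 library, and 196 and 233 in the P56 libraries. The highest stage mean was 29.2 times the lowest, the widest range of the 9 genes tested. At E18.5 the mean was 241 ± 8.27 (SD, n = 2), 8.46 times the early mean (log2 change 3.49, SE 0.20, limma adjusted p = 5.27e-05). P14 was below all 4 libraries of E18.5 and P56 but was not called against E18.5 (log2 change -0.87, adjusted p = 0.119). P56 against E18.5 gave -0.18 (adjusted p = 0.624).

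Zfp36 encodes tristetraprolin, which binds AU-rich messenger RNAs and speeds their decay (chromosome 7, 28376784 to 28380253, minus strand). Its value was 220.2 at E13.5 and 1273 at E15.5, 4186 and 5343 in the E18.5 libraries, 1264 in the P14 library, and 2724 and 2553 in the P56 libraries. The E18.5 libraries were the highest, and P14 lay at the level of E15.5. At E18.5 the mean was 4765 ± 818 (SD, n = 2), 6.38 times the early mean (log2 change 3.16, SE 0.18, limma adjusted p = 5.28e-05). Zfp36 fell 3.77-fold at P14 against E18.5 (log2 change -1.90, SE 0.22, adjusted p = 0.0085), a call lost with no filter (adjusted p = 0.0826) and without robust variances (0.0863). It fell 1.81-fold at P56 against E18.5 (log2 change -0.84, SE 0.18, adjusted p = 0.023). That call was lost with no filter (adjusted p = 0.176), without robust variances (0.0796) and by edgeR without the second P56 library (0.0532).

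**Figure D2:**
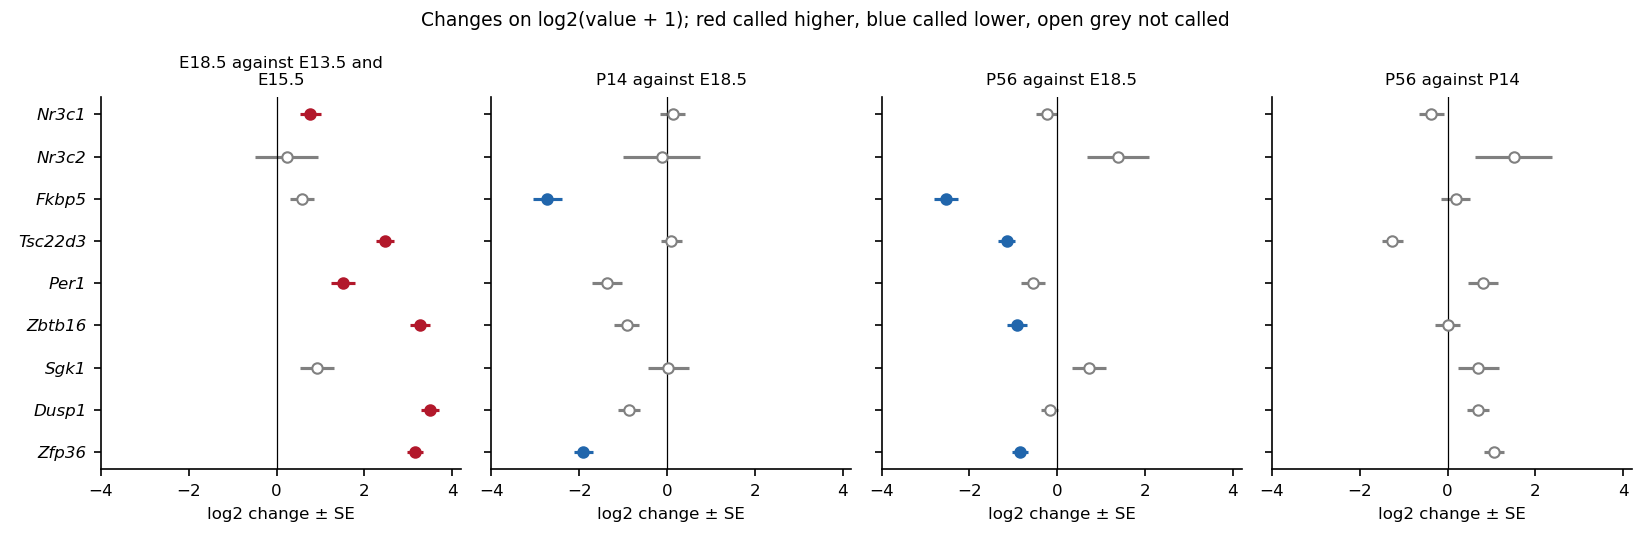
Log2 change of value + 1 with its standard error for the 9 genes tested, in a panel per comparison; red was called higher, blue lower and open grey not called. The largest changes at E18.5 against the early stages are 3.49 for Dusp1 and 3.27 for Zbtb16, and Fkbp5 has the largest falls, -2.72 at P14 and -2.54 at P56, both against E18.5.

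The early increase could be split only as a description, since E13.5 and E15.5 had 1 library each. At E15.5 against E13.5, 4 of the 9 genes were at least 2-fold higher and 0 at least 2-fold lower, where 13.4% of all genes tested were higher and 8.18% lower by that measure. The ratio was 5.90 for Dusp1 (95% exact counting interval 4.04 to 8.82), 5.78 for Zfp36 (5.38 to 6.22), 3.30 for Per1 (2.64 to 4.14) and 2.23 for Tsc22d3 (1.96 to 2.54). Nr3c1 came next, with a ratio of 1.88 (1.46 to 2.41). Zbtb16 was not among them, with a ratio of 0.844 (0.542 to 1.30), nor was Fkbp5, with 0.641 (0.507 to 0.805). These intervals cover counting error only. At E18.5 against E15.5 alone, Zbtb16 had a log2 change of 3.38, Dusp1 2.28, Tsc22d3 1.90 and Zfp36 1.89, and limma called all 4, with adjusted p from 0.000186 to 0.00152. Dusp1, Zfp36 and Tsc22d3 stood higher at each of the 2 steps, and Zbtb16 at the later.

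At P14 against E18.5, 2 of the 9 genes fell, Fkbp5 and Zfp36, and 0 rose, where 1.24% of all genes tested were called lower and 1.87% higher. The median log2 change of the 9 was -0.87, against 0.08 over all genes tested, and P14 lay outside the range of E18.5 for 6 of the 9, as for 72.9% of all genes. At P56 against E18.5, 4 fell, namely Fkbp5, Tsc22d3, Zbtb16 and Zfp36, and 0 rose, where 6.15% of all genes tested were called lower and 8.07% higher. Here the median was -0.55, against 0.06, and the P56 libraries lay apart from the E18.5 libraries for all 9, as for 56.6% of all genes. In the same comparison 7 of 8 alveolar type 1 markers fell and 0 rose (median log2 change -3.90), 7 of 8 alveolar type 2 markers rose and 0 fell (median 2.01), and 6 of 9 tested mesenchymal markers fell and 1 rose (median -1.95). The part of these markers in the 4 falls was not tested. The 2 comparisons and that with the early stages share the E18.5 libraries. At P56 against P14 limma called 0 of the 9, where 0.123% of all genes tested were called higher and 0.694% lower. The median was 0.70, against 0.00, and P14 lay outside the range of P56 for 8 of the 9, as for 71.0% of all genes. Of the 8 alveolar type 1 markers, 6 fell at P56 against P14 (median log2 change -3.18). At an adjusted p under 0.05 DESeq2 called 2 of the 9, where it called 200 genes in all. By the same measure edgeR called 1 of the 9 and 267 genes in all.

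Other genes known as glucocorticoid targets, listed apart from the 10, were mostly higher at E18.5. Of 47 listed, 45 were in the files and 35 were tested, of which 22 rose, 1 fell and 12 were not called, with a median log2 change of 1.68. Over all genes tested, 15.8% were called higher there and 13.4% lower. Aqp5, the water channel of alveolar type 1 cells, rose to 2056 at E18.5, against 8.90 in the early stages (log2 change 8.11, SE 0.18, limma adjusted p = 1.65e-06). All 8 alveolar type 1 markers, Aqp5 among them, rose at E18.5. So did 7 of 8 alveolar type 2 markers, where 1 fell, and 3 of 4 tested club cell markers, where 0 fell. The part of these markers in the rises of the list was not tested. Cebpd, a transcription factor, rose to 96.9, against 5.74, and Cdkn1a, a cell cycle inhibitor, rose 5.23-fold. Cdkn1c, another cell cycle inhibitor, was the only gene of the list that fell. Postnatally the list split: at P56 against E18.5, 10 rose and 6 fell, where 8.07% of all genes tested were called higher and 6.15% lower. Hif3a, a hypoxia-related transcription factor, had 3 reads at P14 and 243 at E18.5 over its 2 libraries.

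Genes of lung fluid clearance and mineralocorticoid response gave 8 higher and 1 lower of 15 tested at E18.5. Over all genes tested, 15.8% were called higher there and 13.4% lower. Scnn1a, the alpha subunit of the epithelial sodium channel that clears fluid from the lung at birth, rose to 2068 at E18.5, against 90.2 in the early stages (log2 change 5.45, SE 0.24, limma adjusted p = 1.76e-05). Scnn1g, its gamma subunit, rose 11.9-fold at E18.5 and fell 33.2-fold at P56 against E18.5. Nedd4l, the ubiquitin ligase that removes the channel from the surface and that Sgk1 inhibits, rose 4.80-fold at E18.5 and fell 3.07-fold at P56 against E18.5. Of the 15, 1 rose and 6 fell at P56 against E18.5, where 8.07% of all genes tested were called higher and 6.15% lower. Of the 8 alveolar type 1 markers, 7 fell there too and 0 rose (median log2 change -3.90). The called changes ran from -4.73 for Cav1 to -1.81 for Ager, and Aqp5 was not called (0.43, limma adjusted p = 0.172). The part of these markers in the falls of the list was not tested.

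Dusp1, Zfp36 and Per1 are also immediate early genes, which respond within minutes to serum, stress or tissue dissociation without any steroid, so that class was measured too. Of 28 other immediate early genes, all tested, 24 rose at E18.5 and 0 fell, with a median log2 change of 1.64. Over all genes tested, 15.8% were called higher there and 13.4% lower. Fos, a subunit of the AP-1 transcription factor, had a value of 178.9 at E13.5 and 1295 at E15.5, 4232 and 4068 in the E18.5 libraries, 2874 in the P14 library, and 4544 and 4314 in the P56 libraries. It rose 5.63-fold at E18.5 against the early stages (limma adjusted p = 3.18e-05). Junb, another AP-1 subunit, rose 6.40-fold and Gadd45b, a stress sensor, 3.71-fold. Without the E13.5 library fewer of the 28 were called higher, as was so over all genes tested. At P14 against E18.5, 1 of the 28 rose and 6 fell, where 1.87% of all genes tested were called higher and 1.24% lower. Among the 6 was Maff, a small Maf transcription factor, 5.67-fold lower. At P56 against E18.5, 8 rose and 3 fell, where 8.07% of all genes tested were called higher and 6.15% lower. Fosb was 2.65-fold higher and Ctgf, a matrix protein gene, 19.3-fold lower. The part of this class in the values of Dusp1, Zfp36 and Per1 was not tested.

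**Figure D3:**
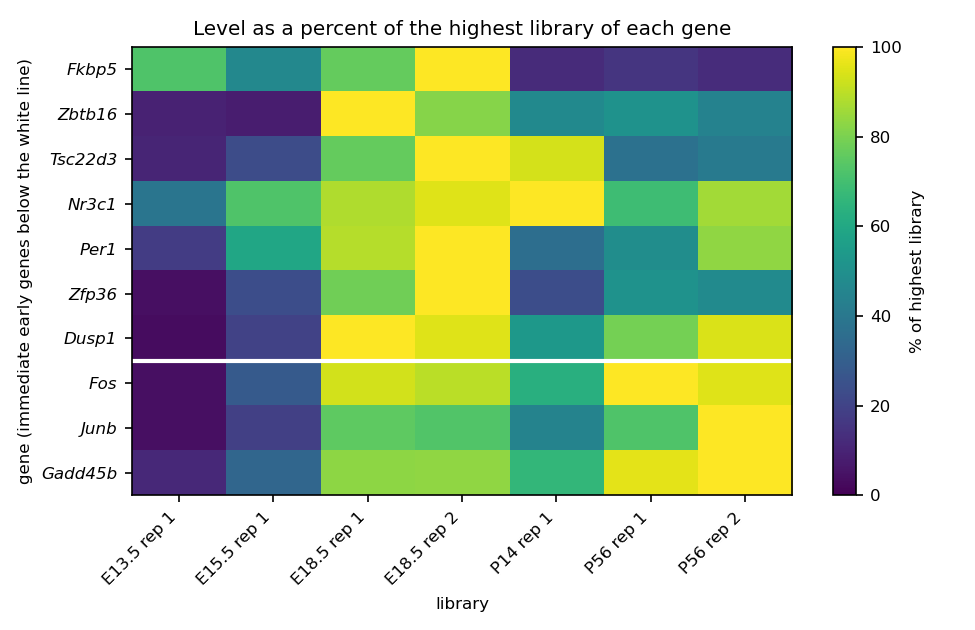
Level of 7 of the genes and of the immediate early genes Fos, Junb and Gadd45b (below the white line) in each library, as a percent of the highest library of each gene. Dusp1 and the 3 immediate early genes are low at E13.5 and E15.5 and high at E18.5 and P56, while Fkbp5 is between 12.2% and 15.4% in the postnatal libraries.

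The genes whose values ran most like each gene, by Pearson's r of log2(value + 1) over the 7 libraries among 3398 genes with a highest stage mean of at least 50, differed between the response genes. This is a description over libraries that share stages and depth. Dusp1 was most like Junb, Fos and Gadd45b (r = 0.99 each), all 3 immediate early genes. Zfp36 was most like Cdh1 (r = 0.99), which encodes E-cadherin. Next for Zfp36 came Gadd45g, a listed glucocorticoid target, and Klf6, a listed immediate early gene (r = 0.98 each). Tsc22d3 was most like Pld2, a phospholipase (r = 0.996). Zbtb16 was most like Ahnak, a giant scaffold protein (r = 0.995), and Fkbp5 like Hic2, a transcriptional repressor (r = 0.98). Nr3c1 was most like Cldn18 (r = 0.98), a tight junction gene of alveolar cells. Per1 was most like Grasp (r = 0.95).

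Since Per1 belongs to the circadian clock and the hour of collection is not given, the clock was measured beside it. Of 21 other clock genes, 10 rose at E18.5 and 0 fell, with a median log2 change of 1.27. Over all genes tested, 15.8% were called higher there and 13.4% lower. Tef, a clock output factor, rose 7.36-fold and Nr1d1, which encodes the repressor Rev-erb alpha, 5.30-fold. At P56 against E18.5, 5 rose and 3 fell, where 8.07% of all genes tested were called higher and 6.15% lower. Dbp, an output factor, was 14.2-fold higher and Nr1d1 4.55-fold higher, in the comparison where Per1 was not called. The part of the clock genes in the values of Per1 was not tested.

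Of 33 paralogs of the 10 genes that were tested, 7 rose and 7 fell at E18.5, where 15.8% of all genes tested were called higher and 13.4% lower, with a median log2 change of 0.09, against 0.03 over all genes tested. Fkbp3, a nuclear relative of Fkbp5, fell 15.3-fold, to 22.9 at E18.5, against 351 in the early stages (limma adjusted p = 0.000201). Zbtb32 rose 4.48-fold at E18.5 and fell 8.52-fold at P56 against E18.5, and Per3 rose 7.17-fold at E18.5. Without the E13.5 library fewer paralogs were called in either direction, as was so over all genes tested.

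**Figure D4:**
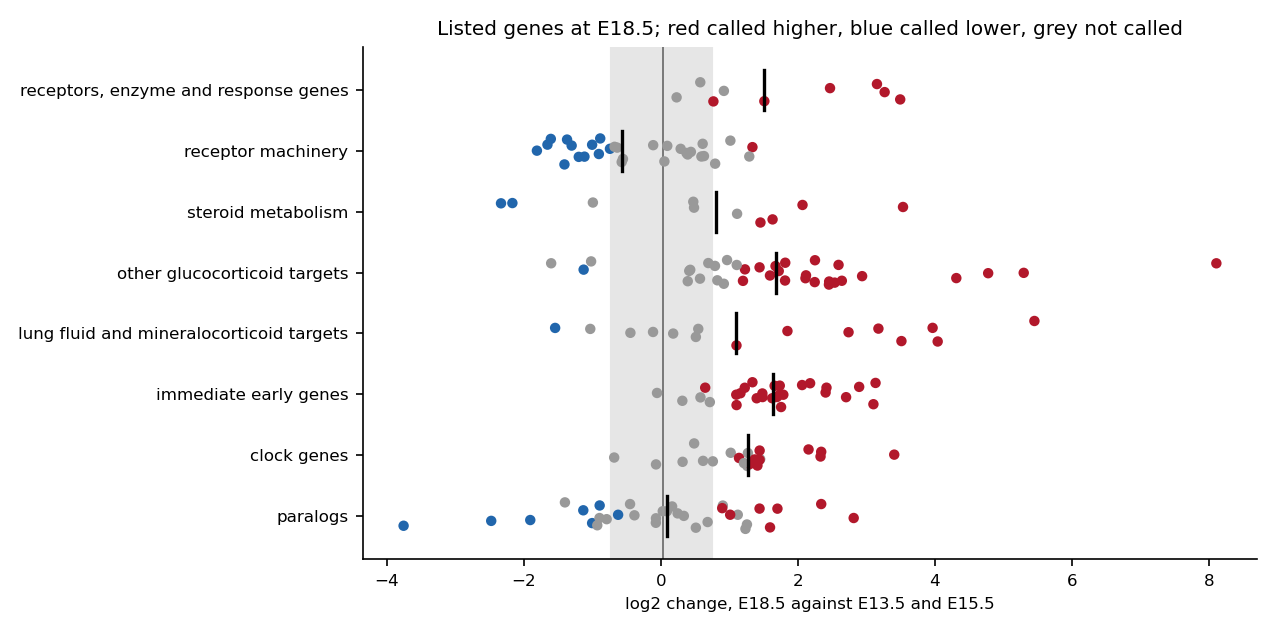
Log2 change at E18.5 against E13.5 and E15.5 of each tested gene in 8 lists; points are genes (red called higher, blue lower, grey not called), black bars are list medians, the vertical line is the median of all genes tested and the grey band runs from their lower to their upper quartile. The medians are 1.51 for the receptors and response genes, 1.64 for immediate early genes, 1.68 for other glucocorticoid targets and -0.56 for the receptor machinery.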

How the data were processed

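Per the labels' protocols, RNA of the sorted cells was amplified for 3' SAGE libraries and sequenced on an Ion Proton instrument. The deposited unit is a signal: per gene, the tag count of a library times a single factor set by the authors. This was inferred from the values, 100% of which came out as whole reads within 0.01. Columns sum to 918538.5 to 1058211. The submitters' processing notes name the mm10 build, Bowtie2 2.2.5 and R 3.4.0; the counter, annotation and scaling are not given in the sources used here.

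Of 21121 genes, 12964 passed edgeR's filterByExpr by stage on recovered reads. They were tested with robust limma-trend on log2(value + 1), in a single model of the 7 libraries with the stage as factor and 2 residual degrees of freedom; stages with a lone library borrow the spread of E18.5 and P56. The pseudocount of 1 understates changes of low genes. On recovered reads edgeR's quasi-likelihood test called 3994 genes at E18.5 against the early stages, and limma 3779. The script was tested on simulated data. E13.5 and E15.5 were compared by exact counting intervals at 95% confidence, and zeros by a floor of 3 reads.

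The genes and lists were chosen with earlier results of these data known. Up to 4 genes per list and comparison could be named, those with the smallest p among called genes with libraries that did not overlap, and 3 similar genes per gene. Not all are reported. H6pd is so named. Hsd11b2, Lamb3, Hsp90aa1, Hsp90ab1, single cell type markers, Cdkn1c at E18.5 and levels of genes in other stages were chosen after their values were seen. GENCODE vM21 gave positions and RefSeq the upstream sequences. Replicate numbers of E18.5 and P56 were checked for pairing. Tools were limma 3.58.1, DESeq2 1.42.0 and edgeR 4.0.16 in R 4.3.3, with scipy 1.17.1 in Python 3.11.15.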

Additional observations from a re-analysis of the deposited data

How the results depend on the processing

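Settings were edgeR, DESeq2, TMM scaling, pseudocounts of 0.25 and 4, no filter, a mean value of at least 5, no robust variances, the replicate number as a block (replicate block) and fits that drop a library; edgeR fits without a library were chosen after seeing the data. Tsc22d3, Zbtb16, Dusp1 and Zfp36 were called higher at E18.5 against the early stages in all 9 settings with every library, and in all 6 edgeR fits without a library. Leaving out a replicated library left limma 1 residual degree of freedom and 0 calls over all genes. At an unadjusted p under 0.05 those fits had 3725 to 4706 genes and 6 of the 9 at E18.5 against the early stages, and 646 to 3322 genes and 2 to 5 of the 9 in the other comparisons. Numbers did not pair the libraries (correlation of deviations 0.00982 over 12964 genes). Nr3c2, Sgk1 and Hsd11b1 rest on few reads, at most 23, 49 and 8 in a library.

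Of the 9 genes, the number called higher at E18.5 (main 6) was 0 to 7 without a library. At P14 against E18.5 the number called lower (main 2) was 0 with no filter, 0 without robust variances, 0 with the replicate block (Fkbp5 adjusted p = 0.143, Zfp36 0.144) and 0 to 5 without a library. At P56 against E18.5 the number lower (main 4) was 0 with no filter, 2 without robust variances, 2 with the replicate block (Zbtb16 and Zfp36 lost, adjusted p = 0.0805 each) and 0 to 4 without a library, and the number higher (main 0) was 0 to 1. At P56 against P14 (main 0 and 0) DESeq2 called 1 higher and 1 lower, edgeR 1 lower and the mean of at least 5 1 lower, and fits without a library 0 to 1 each way. The Nr3c1 call at E18.5 was lost with DESeq2, no filter (adjusted p = 0.0966), no robust variances (0.0535), the block (0.14), and edgeR without the second E18.5, either P56 or the E13.5 library (0.0512 to 0.525). The Per1 call was lost with no filter (0.122) and without E13.5.

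Signs turned only where no call was made, and the cause was not tested. For Nr3c2 at E18.5 against the early stages, limma without a library gave -0.83 (first E18.5 library left out) to 1.29 (second left out), with -0.0076 without E15.5, and edgeR -1.81 to 1.79. At P14 against E18.5, Nr3c2 was 0.067 with a pseudocount of 0.25, -1.18 to 0.95 in limma fits without a library, and -1.66 to 1.96 in edgeR fits. Tsc22d3 there was -0.093 to 0.30 in limma fits without a library and -0.16 to 0.21 in edgeR fits. Sgk1 there was -0.060 with edgeR, -0.065 with DESeq2, -0.041 with TMM and -0.15 with the replicate block, and without a library -0.16 to 0.21 with limma and -0.26 to 0.18 with edgeR (-0.060 and -0.053 without the first and second P56 library). Zbtb16 at P56 against P14 was 0.012 with edgeR, 0.040 with DESeq2, 0.0070 with TMM and 0.12 with the replicate block, and without a library -0.10 to 0.10 with limma and -0.10 to 0.11 with edgeR (0.012 and 0.0069 without the first and second E18.5 library). Over all genes, calls at P14 against E18.5 (main 242 higher and 161 lower) were 3 and 3 without robust variances, 7 and 9 with the replicate block and 816 and 235 with no filter. At E18.5 against the early stages edgeR gave a median of 0.13 over all genes, against 0.03 with limma; the replicate block gave 1121 higher and 772 lower (main 2043 and 1736). At P56 against E18.5 (main 1046 and 797) no filter gave 355 and 324, no robust variances 609 and 516, the replicate block 479 and 415 and DESeq2 632 and 625. At P56 against P14 (main 16 and 90) edgeR gave 74 and 193, no filter 110 and 690, and no robust variances and the replicate block 0 each. Of the receptor machinery at E18.5 (main 12 lower), 2 were called lower with no filter and 3 with the replicate block. Of the clock genes (main 10 higher) no filter left 6. Over all genes, no filter gave 1352 higher and 2267 lower in that comparison.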
